A study of Mus musculus with 6 samples.

Results

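The circadian clock genes described here are 10 rows of a gene count table, Per1, Per2, Cry1, Cry2, Arntl, Clock, Nr1d1, Nr1d2, Dbp and Tef, picked by symbol out of 46095 gene symbols. RNA was sequenced from BV2 cells, an immortalized mouse microglial line, in 3 libraries of untreated cells (CON) and 3 libraries of cells given recombinant sTREM-1, the soluble form of the receptor TREM-1, at 1 μg/mL for 6 h. All 6 libraries come from this same line with no genetic change named in the labels, and the sources used here do not say whether CON wells received a matching change of medium or a vehicle, so that the protein and its addition cannot be told apart. The labels give 6 h for the sTREM-1 libraries but no hour for CON, so that a difference in harvest time cannot be told apart either. No series of time points was taken, and the phase of a rhythm was therefore not measured.

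In the molecular clock, the transcription factors BMAL1 (encoded by Arntl) and CLOCK bind DNA as a pair at E-boxes and switch on the Per, Cry, Nr1d1, Nr1d2, Dbp and Tef genes. PER and CRY proteins then inhibit that pair, and the nuclear receptors REV-ERBα and REV-ERBβ (Nr1d1 and Nr1d2) repress Arntl. In cultured cells the loop is known to be reset by serum, glucocorticoids, cAMP and temperature, and in macrophages and microglia it is known for setting the strength of inflammatory responses.

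The library totals lay between 40070633 and 45877107 counts, and edgeR's quasi-likelihood test was run on 14120 genes. A gene is said here to have fallen or risen where its p-value, adjusted over all tested genes by the Benjamini-Hochberg method, was under 0.05. CPM is the count of a gene scaled by the total of its library, which was first corrected with TMM factors. Of 11 markers of microglia, 9 were expressed highly enough to be tested, and Csf1r, Itgam, Tyrobp and Trem2 all exceeded 100 CPM, while Aif1 and Sall1 were listed at 0 in every library and Cx3cr1, P2ry12, Tmem119 and Fcrls stayed under 2.2 CPM. The summed level of the 11 markers was 1579 to 1594 CPM in CON and 1824 to 1871 CPM after sTREM-1. The summed levels of 5 neuron, 4 astrocyte and 4 fibroblast markers did not exceed 0.328, 0.318 and 0.561 CPM in any library, and 4 oligodendrocyte markers summed to between 5.63 and 7.84 CPM. The part of the microglia markers in the results below was not tested, and in such bulk RNA fewer cells of a type and less RNA per cell cannot be told apart.

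All 10 clock genes were expressed and tested. After sTREM-1, 5 of them fell, namely Per1, Per2, Cry2, Arntl and Tef, and 0 rose. Among all tested genes, 30.5% passed the test, 14.1% as lower and 16.5% as higher. The median log2 fold change of the 10 genes was -0.16, against -0.0017 over all tested genes, and their median absolute log2 fold change was 0.16 against 0.13. For 7 of the 10 genes the highest sTREM-1 value was under the lowest CON value, and for 0 genes above, while 40.7% of all tested genes had groups without overlap in either direction. Leaving out CON replicate 1 or sTREM-1 replicate 1 lowered the number of clock genes that fell from 5 to 3. Of the 5, Per1 and Cry2 passed under each of the 15 other fits whereas Per2, Arntl and Tef each lost the call in at least 1.

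**Figure D1:**
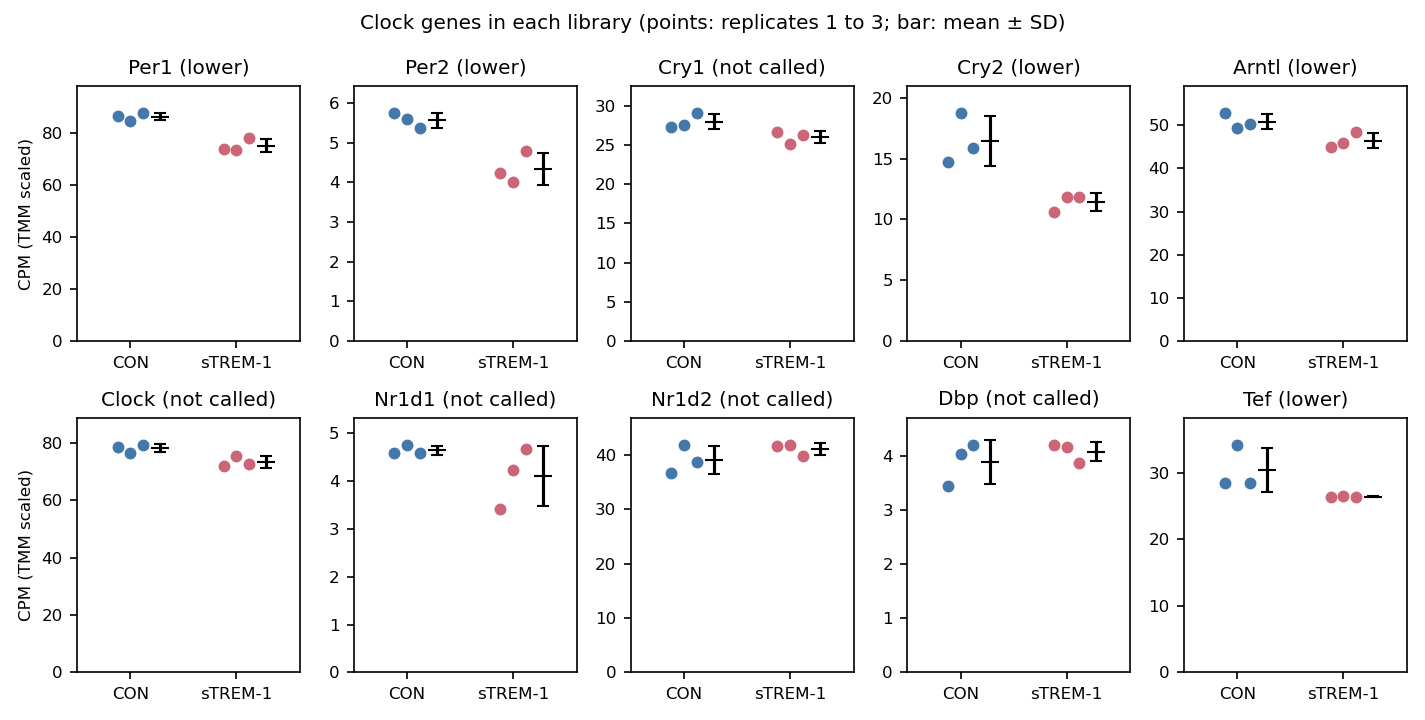
Level of each clock gene in CPM (vertical axes, each starting at 0) in the 3 CON and the 3 sTREM-1 libraries, with points for single libraries and bars for the mean ± SD of 3 libraries. Relative to their levels, Cry2 and Per2 show the widest gap between the groups, and Nr1d2, Nr1d1 and Dbp overlap.

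Before the single genes are described, promoter stretches that hold a clock motif are shown, 1 for each gene with a match, since several of these genes are textbook targets of the BMAL1 and CLOCK pair. RefSeq promoter sequences of the mouse build GRCm38.p6, from 250 bases before to 50 bases after a transcription start, were found for 9 of the 10 genes in 14 windows. Per2 had no entry. The E-box CACGTG, searched on both strands, lay in the windows of 3 of the 9 genes (Per1, Cry1 and Tef) and in 7.15% of all 32851 promoter windows. The related sequence CACGTT, a weaker form known as the E-prime box, lay in the windows of 3 genes (Cry1, Cry2 and Nr1d1) and in 4.68% of all windows, and read from the gene's own strand it appears as AACGTG in each of these. The REV-ERB sequence GTAGGTCA lay in 1 gene, Arntl, and in 0.621% of all windows. These percentages count single windows, whereas the clock genes are counted as genes, some with several windows, so the shares are not like measures. No window of Clock, Nr1d2 or Dbp held any of these, and the cAMP response element TGACGTCA and the D-box forms TTATGTAA and TTACGTAA, bound by DBP and TEF, lay in the windows of 0 of the 9 genes. Each stretch is written 5′ to 3′ on the strand of the gene, with the letters of the motif named beside it in capitals.
Per1, chr11:69098756-69098815, plus strand, E-box 166 bases before the start: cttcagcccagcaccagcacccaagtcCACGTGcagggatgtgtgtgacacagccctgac
Tef, chr15:81802519-81802578, plus strand, E-box 127 bases before the first of its starts: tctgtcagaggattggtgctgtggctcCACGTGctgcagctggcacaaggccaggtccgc
Cry2, chr2:92434203-92434262, minus strand, E-prime box 166 bases before the start: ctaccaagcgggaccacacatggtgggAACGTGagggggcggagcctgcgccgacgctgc
Cry1, chr10:85185082-85185141, minus strand, E-box 60 bases before the start, with the E-prime box 79 bases before the start left in lower case: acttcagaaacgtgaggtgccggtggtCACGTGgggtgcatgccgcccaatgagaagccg
Nr1d1, chr11:98775373-98775432, minus strand, E-prime box 28 bases before the start: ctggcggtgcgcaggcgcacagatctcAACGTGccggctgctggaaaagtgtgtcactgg
Arntl, chr7:113207529-113207558, plus strand, REV-ERB sequence 29 bases after the later of its starts: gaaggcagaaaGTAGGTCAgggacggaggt

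A further Tef start, in the same build, has an E-box 138 bases before it (chr15:81811249-81811308, sequence not shown). Per1 also has a further, later start, and the window of that start holds none of these motifs. These matches describe letters only. Genes with an E-box or E-prime box were found among those that fell (Per1, Tef, Cry2) and among those that did not pass the test (Cry1, Nr1d1).

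The repressor arm of the clock, made of the PER and CRY proteins that inhibit BMAL1 and CLOCK, held 3 of the 5 genes that fell. Cry2, a cryptochrome, had 14.7, 18.7 and 15.9 CPM in CON replicates 1, 2 and 3 and 10.6, 11.8 and 11.9 CPM in sTREM-1 replicates 1, 2 and 3. Each sTREM-1 library was thus under the lowest CON library, and CON replicate 2 was the highest. The mean went from 16.4 ± 2.07 to 11.4 ± 0.722 CPM (SD, n = 3 each), which is -0.53 ± 0.09 as a log2 fold change with its standard error (edgeR adjusted p = 2.95e-05) and the widest fall among the 10 genes. Without CON replicate 2 the log2 fold change of Cry2 was -0.42, and it still passed the test. Its paralog Cry1, with an E-box and an E-prime box in the promoter shown above, had 27.3, 27.6 and 29.1 CPM in CON and 26.7, 25.2 and 26.3 CPM after sTREM-1. These groups did not overlap either, but the log2 fold change of -0.10 (95% interval -0.22 to 0.01) did not pass (adjusted p = 0.194). The log2 ratio of Cry2 to Cry1 was -0.89, -0.56 and -0.87 in the CON libraries and -1.33, -1.09 and -1.15 in the sTREM-1 libraries. The ratio was thus lower in all 3 sTREM-1 libraries than in any CON library.

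Per1, a period gene that also responds quickly to cAMP and glucocorticoids, had 86.6, 84.8 and 87.6 CPM in CON and 73.9, 73.4 and 78.1 CPM after sTREM-1. The spread within each group was small next to the gap between them. The fall of Per1 was -0.20 ± 0.04 as a log2 fold change with its standard error (edgeR adjusted p = 6.1e-05), and across the 15 other fits it ran from -0.23 to -0.19. Per2, the other period gene among the 10, had the lowest level of the repressors, with 235, 229 and 219 counts in CON and 193, 171 and 190 counts after sTREM-1. In CPM these were 5.74, 5.58 and 5.36 against 4.22, 4.01 and 4.79, so that sTREM-1 replicate 3 came nearest to CON. The log2 fold change of Per2 was -0.36 (standard error 0.13, edgeR adjusted p = 0.0341). At its smallest count of 171, counting error alone amounts to 7.65% of the value. The call was lost without CON replicate 1, CON replicate 2, sTREM-1 replicate 1 or sTREM-1 replicate 2, with adjusted p = 0.0864, 0.0637, 0.0933 and 0.119 in that order, and without a filter on low counts (adjusted p = 0.0633).

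Of the activator arm, Arntl fell and Clock did not pass. Arntl, which encodes BMAL1, had 52.8, 49.3 and 50.4 CPM in CON and 45.1, 45.9 and 48.4 CPM after sTREM-1, so that its groups lay apart by less than 1 CPM. The mean went from 50.8 ± 1.79 to 46.5 ± 1.75 CPM (SD, n = 3 each), or -0.13 ± 0.04 on the log2 scale (fold change and standard error, edgeR adjusted p = 0.025). The fall of Arntl did not pass without CON replicate 1 (adjusted p = 0.137), sTREM-1 replicate 1 (adjusted p = 0.124) or sTREM-1 replicate 2 (adjusted p = 0.0669). Clock, its partner, had 78.5, 76.6 and 79.3 CPM in CON and 71.7, 75.5 and 72.6 CPM after sTREM-1. All 3 sTREM-1 values of Clock were under the CON values, and its log2 fold change of -0.09 (standard error 0.04) just missed the threshold (adjusted p = 0.0543). Across the other fits the adjusted p of Clock ran from 0.0169 to 0.197, and it passed in 7 of 15. The log2 ratio of Clock to Arntl was 0.57 to 0.65 in CON and 0.58 to 0.72 after sTREM-1, with overlap.

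The REV-ERB receptors, which repress Arntl, did not pass the test. Nr1d1 had 188, 195 and 187 counts in CON and 156, 180 and 185 counts after sTREM-1. On the CPM scale the CON libraries lay within 4.58 to 4.75, whereas the sTREM-1 libraries spread from 3.42 in replicate 1 to 4.66 in replicate 3. Its log2 fold change was -0.18 (95% interval -0.47 to 0.11, adjusted p = 0.379), while it was -0.06 without sTREM-1 replicate 1 and -0.28 without sTREM-1 replicate 3. Nr1d2 was the more abundant receptor, with 36.7, 41.8 and 38.6 CPM in CON and 41.6, 41.7 and 39.8 CPM after sTREM-1. The groups of Nr1d2 overlapped, and the interval of its log2 fold change of 0.07 ran from -0.03 to 0.17 (adjusted p = 0.314), which corresponds to a fold change between 0.979 and 1.13. Without CON replicate 1 the log2 fold change of Nr1d2 was 0.03, and without CON replicate 2 it was 0.12.

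Dbp and Tef encode transcription factors of the PAR bZIP family, which carry the clock's output to D-box genes. Dbp had 3.44, 4.05 and 4.21 CPM in CON and 4.203, 4.18 and 3.88 CPM after sTREM-1, and CON replicate 1 was the lowest of all 6 libraries. The log2 fold change of Dbp was 0.07 (95% interval -0.23 to 0.37, adjusted p = 0.782), and it turned to -0.01 without CON replicate 1 and was 0.12 without CON replicate 3. Tef had 28.5, 34.2 and 28.5 CPM in CON and 26.4 CPM in each of the 3 sTREM-1 libraries. Its fall (log2 fold change -0.20, standard error 0.06, edgeR adjusted p = 0.0141) therefore rested on CON replicate 2, without which the log2 fold change was -0.11 and the adjusted p = 0.222. The same CON library was also the highest of its group for Cry2, Nr1d1 and Nr1d2, and it was the lowest of its group for Per1, Arntl and Clock.

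**Figure D2:**
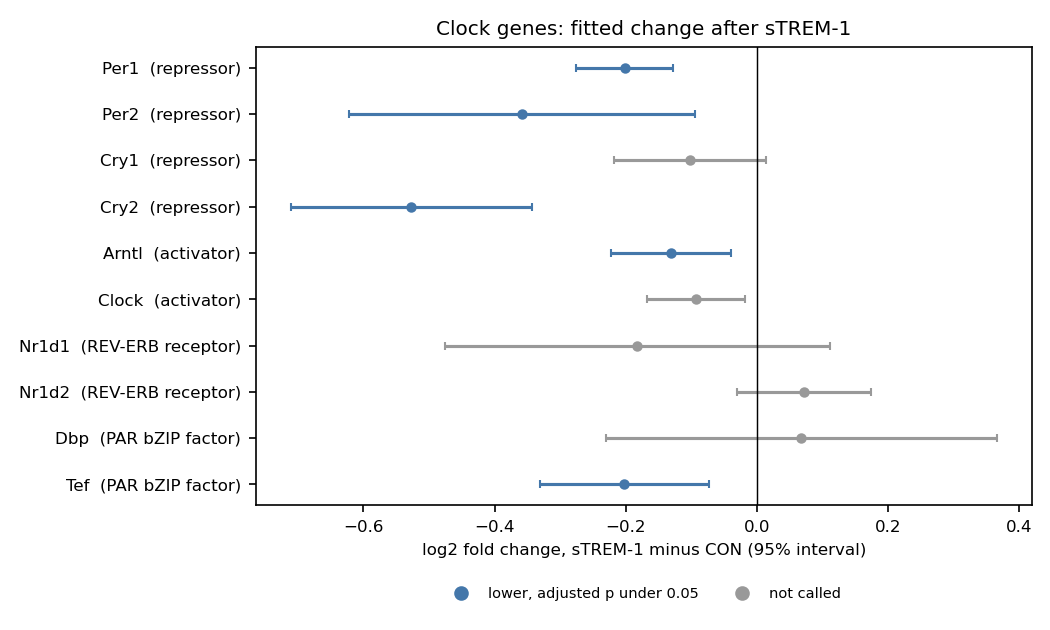
Fitted log2 fold change (horizontal axis, sTREM-1 minus CON) of the 10 clock genes, ordered by role, with 95% intervals, in blue where the gene fell at an adjusted p under 0.05 and in grey where it did not pass. The 5 blue genes are Per1, Per2, Cry2, Arntl and Tef, and the points of Nr1d2 and Dbp alone lie above 0.

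**Figure D3:**
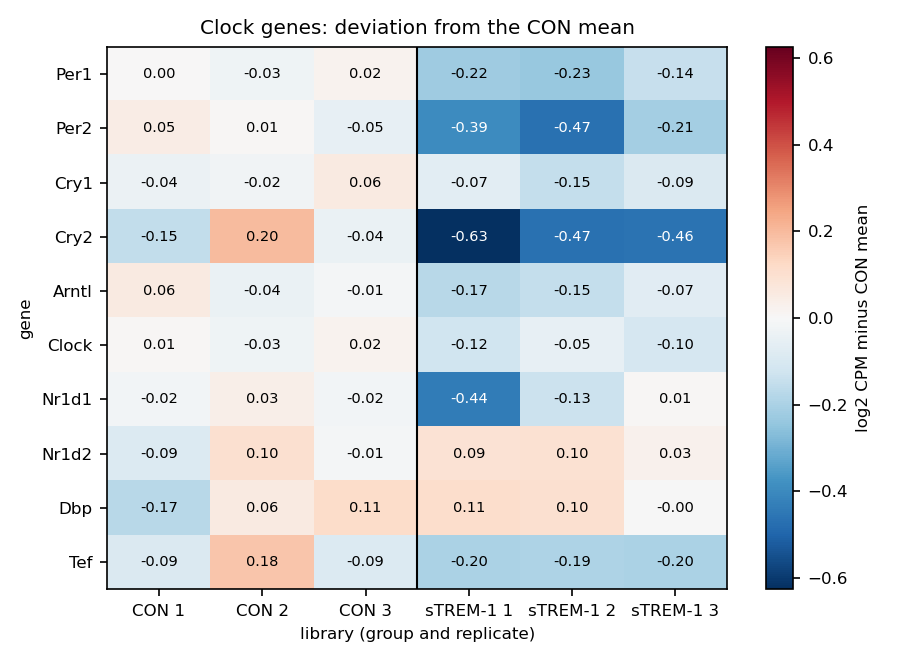
Log2 CPM of each clock gene (rows) minus its CON mean in each of the 6 libraries (columns), with the value printed in each cell. Per1, Per2, Cry2, Arntl and Tef are negative in all 3 sTREM-1 libraries, Cry2 down to -0.63, and CON 2 holds the positive values 0.20 for Cry2 and 0.18 for Tef.

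Counts of different genes can be compared only per length, and CPM was therefore divided by the length of the merged exons in GENCODE M21, which counts all annotated isoforms and so understates genes with many alternative exons. In CON, the order by CPM per kilobase was Per1 (15.3 ± 0.249), Cry1 (8.37 ± 0.288), Nr1d2 (7.22 ± 0.479), Arntl (6.76 ± 0.238), Clock (5.69 ± 0.101), Tef (3.86 ± 0.419), Cry2 (2.60 ± 0.328), Nr1d1 (1.51 ± 0.0316), Dbp (1.30 ± 0.135) and Per2 (0.950 ± 0.0321), each as mean ± SD over 3 libraries. Among neighbours in this order, only the libraries of Nr1d2 and Arntl overlapped. After sTREM-1 the order was the same except that Dbp (1.37 ± 0.0596) stood before Nr1d1 (1.33 ± 0.206), a pair whose libraries overlapped, as did those of Cry1 (7.80 ± 0.236) and Nr1d2 (7.59 ± 0.199). Per1 thus had the highest level per length in both groups, and Per2 the lowest.

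The genes also differed in how steady they were within a group. The pooled SD of log2 CPM within groups was 0.03 for Clock, 0.04 for Per1, 0.05 for Cry1, 0.05 for Arntl and 0.07 for Nr1d2. It was larger for Per2 (0.10), Tef (0.11), Dbp (0.12), Cry2 (0.14) and Nr1d1 (0.16), where the median over all tested genes was 0.08. The noisier genes Per2, Dbp and Nr1d1 are the ones of fewest counts, while Cry2 and Tef owe theirs mainly to CON replicate 2.

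Relative to Arntl, whose expression peaks opposite to that of the Per genes in rhythmic tissue, both period genes and Cry2 lay lower in each sTREM-1 library than in any CON library, a comparison given without a test. The log2 ratio of Per2 to Arntl was -3.19, -3.13 and -3.22 in CON and -3.40, -3.50 and -3.33 after sTREM-1. For Cry2 the log2 ratio to Arntl was -1.84, -1.39 and -1.67 against -2.09, -1.95 and -2.03. Per1 differed by less, with log2 ratios of 0.713 to 0.796 in CON and 0.677 to 0.712 after sTREM-1, so that the groups all but touched. The ratios of Cry1, Clock, Nr1d1, Nr1d2, Dbp and Tef to Arntl overlapped between the groups. These ratios also hold the lengths of both genes, and only their change between libraries can be read.

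Of 24 further clock genes outside the 10, 21 were tested, 5 rose and 3 fell, and the median log2 fold change was 0.005. Together 38.1% of the tested ones passed, where 30.5% of all tested genes did. Bhlhe40 and Bhlhe41 encode DEC1 and DEC2, which compete for E-boxes, and Nfil3 encodes a repressor that competes with DBP and TEF at D-boxes. Bhlhe40 had 176, 178 and 169 CPM in CON and 202, 189 and 194 CPM after sTREM-1 (log2 fold change 0.16, edgeR adjusted p = 5.65e-05). Bhlhe41 had 211, 218 and 211 CPM in CON and 229, 237 and 226 CPM after sTREM-1 (log2 fold change 0.12, edgeR adjusted p = 0.00127). Nfil3 had 73.1, 73.1 and 71.3 CPM against 79.8, 77.7 and 82.0 CPM (log2 fold change 0.14, edgeR adjusted p = 0.0035). For each of these 3 genes every sTREM-1 value was above the CON values. Ciart, another repressor gene of the loop, had overlapping groups and a log2 fold change of 0.0067 (adjusted p = 0.962). Timeless, a partner of the replication fork that has also been linked to the clock, rose with a log2 fold change of 0.30, and Nono, an RNA-binding partner of PER proteins, with 0.20.

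Among the further clock genes that fell were those of kinases that act on clock proteins. Csnk1e encodes a casein kinase that marks PER proteins for degradation, and it had 78.5, 76.2 and 74.7 CPM in CON and 63.9, 60.2 and 68.1 CPM after sTREM-1 (log2 fold change -0.26, edgeR adjusted p = 1.37e-05). The related kinase gene Csnk1d did not pass, with 136 CPM in both groups. Gsk3b, another clock kinase gene, fell with a log2 fold change of -0.11. Rora, whose product activates Arntl at REV-ERB sites, had a log2 fold change of 0.14 that did not pass (adjusted p = 0.082). That value was 0.08 without CON replicate 2 or sTREM-1 replicate 2, and it passed without sTREM-1 replicate 3 (0.18, adjusted p = 0.0464). Per3, the remaining period gene, had 1.82 ± 0.365 CPM in CON and 1.54 ± 0.166 CPM after sTREM-1 (SD, n = 3 each, adjusted p = 0.512), with a log2 fold change of -0.24 that was -0.07 without CON replicate 3.

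**Figure D4:**
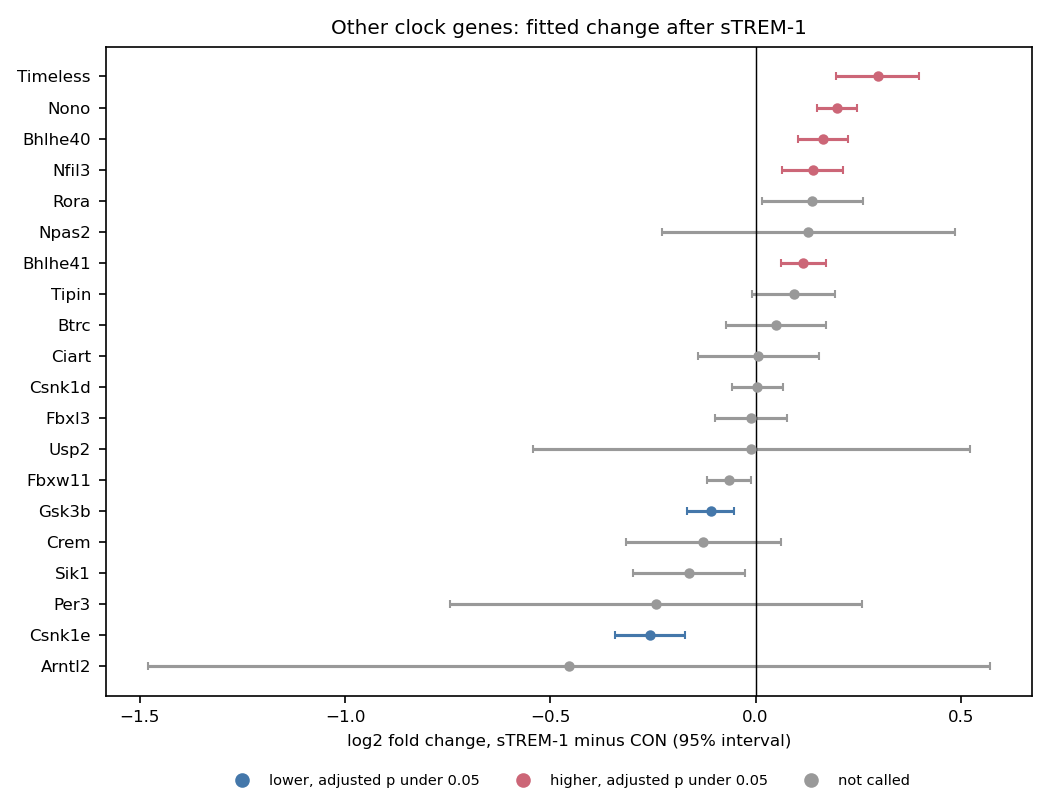
Fitted log2 fold change (horizontal axis, sTREM-1 minus CON) of the further tested clock genes reported here, sorted from highest to lowest, with 95% intervals, in red where a gene rose, in blue where it fell and in grey where it did not pass at an adjusted p of 0.05. Timeless, Nono, Bhlhe40, Nfil3 and Bhlhe41 are red, and Csnk1e and Gsk3b are blue.

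Clock genes also record how a culture was handled, and genes of 3 known resetting inputs were set beside them. Of 24 serum and immediate early genes, 22 were tested, 7 fell and 3 rose (45.5% passed, against 30.5% of all tested genes), and the median log2 fold change was -0.07. Their summed level was 2350 to 2404 CPM in CON and 2324 to 2351 CPM after sTREM-1, with Egr1 listed at 0 in every library. Dusp2, a phosphatase of the MAP kinases, fell from 26.8 ± 0.741 to 15.3 ± 0.857 CPM (SD, n = 3 each, log2 fold change -0.81, edgeR adjusted p = 6.3e-11). Fos (log2 fold change -0.55), Nr4a1 (-0.56) and Nr4a2 (-0.58) fell as well, and the fall of Nr4a2 did not pass without sTREM-1 replicate 3 (adjusted p = 0.0756). Jun (0.18), Junb (0.16) and Ier3 (0.14) rose on the same scale. In all 3 sTREM-1 libraries the median of this list lay under the CON libraries. The same held for the lists of glucocorticoid response genes and REV-ERB repressed genes given below, but not for the temperature response genes.

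Of 12 glucocorticoid response genes, all tested, 2 rose and 3 fell (41.7% passed, against 30.5%), and the median log2 fold change was -0.05. Their summed level was 754 to 764 CPM in CON and 779.6 to 804 CPM after sTREM-1. Ddit4 and Mt2 had log2 fold changes of 0.42 and 0.17. Klf9, Cebpd and Sgk1 had -0.20, -0.18 and -0.14, where Cebpd did not pass without CON replicate 1 (adjusted p = 0.209) or sTREM-1 replicate 1 (adjusted p = 0.11) and Sgk1 without CON replicate 3 (adjusted p = 0.0549). Tsc22d3, the usual readout of glucocorticoid action, had 52.4 CPM in both groups. Of 10 temperature response genes, 7 were tested, 2 rose and 0 fell (28.6% passed, against 30.5%), with Hspa1a and Hspb1 listed at 0 in every library and a summed level of 1486 to 1539 CPM in CON and 1800 to 1820 CPM after sTREM-1. The chaperone genes Hspa8 and Hsp90aa1 rose with log2 fold changes of 0.54 and 0.22, while the cold-induced genes Cirbp (9.47 ± 1.06 CPM in CON, 9.40 ± 0.329 CPM after sTREM-1) and Rbm3 (135 CPM in both groups) did not pass. The part of these inputs in the fall of the clock genes was not tested.

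**Figure D5:**
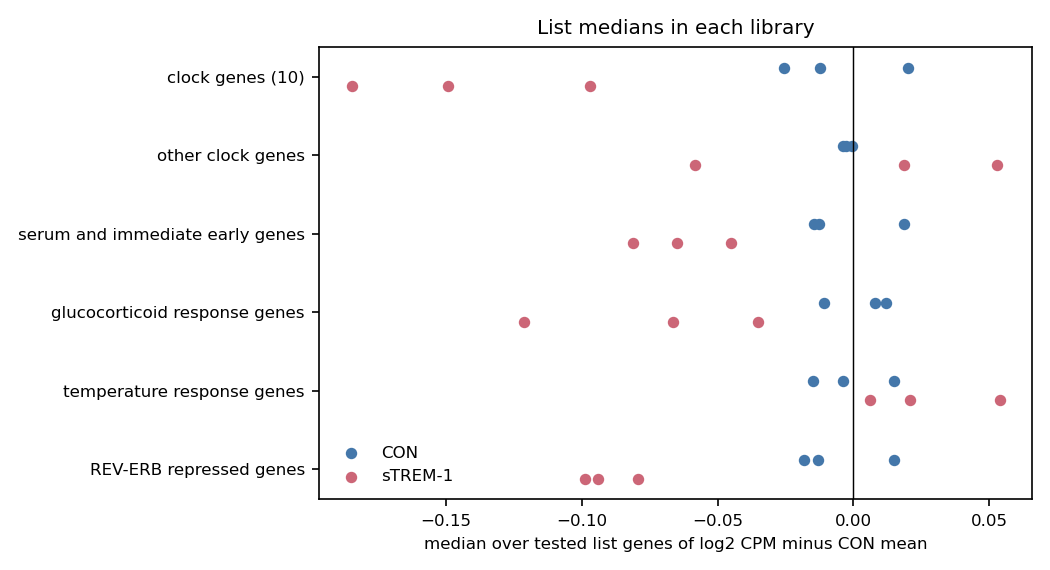
Median over the tested genes of each list of log2 CPM minus the CON mean (horizontal axis), with 1 point for each of the 3 CON and 3 sTREM-1 libraries. The clock genes lie between -0.18 and -0.10 in the sTREM-1 libraries, and the further clock genes spread to both sides of 0.

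Genes known to be repressed by REV-ERB receptors were set beside Nr1d1 and Nr1d2, although receptor activity itself was not measured. Of 10 such genes, which include Arntl, Clock and Cry1 from above, all were tested, 4 fell and 3 rose (70% passed, against 30.5%), and the median log2 fold change was -0.10. The cytokine gene Il6 fell from 33.2 ± 1.44 to 21.0 ± 1.03 CPM, the chemokine gene Ccl2 from 653 ± 19.6 to 485 ± 14.1 CPM and the protease gene Mmp9 from 41.9 ± 0.387 to 36.4 ± 1.40 CPM (SD, n = 3 each). Nfil3 rose as given above, and the inflammasome gene Nlrp3 rose with a log2 fold change of 0.28. The chemokine receptor gene Cx3cr1 had 0.945 ± 0.146 CPM in CON and 1.77 ± 0.490 CPM after sTREM-1 (SD, n = 3 each) and rose, a call lost without CON replicate 1, sTREM-1 replicate 2 or sTREM-1 replicate 3 (adjusted p = 0.0655, 0.116 and 0.057). The list thus moved in both directions, and the part of the REV-ERB receptors in these changes was not tested.

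Some of the clock genes share bases with genes on the other strand, and the sources used here do not say whether strand was used in the counting, so such reads cannot be told apart. In GENCODE M21, 18.0% of the merged exon bases of Dbp overlap Sphk2, which had 88.6 ± 1.65 CPM in CON and 86.7 ± 3.90 CPM after sTREM-1 (SD, n = 3 each). For Nr1d1, 8.55% overlap Thra, a thyroid hormone receptor gene with 18.4 ± 0.618 CPM in CON and 20.8 ± 1.33 CPM after sTREM-1 (SD, n = 3 each), whose log2 fold change of 0.17 did not pass (adjusted p = 0.0612). For Cry2, Tef and Arntl the overlap with antisense transcripts was 4.67%, 2.45% and 0.439%, and the other 5 clock genes had none.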

How the data were processed

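RNA-seq of 6 BV2 cultures was analysed from the table the authors deposited, which holds raw, whole-number counts, 1 line per gene symbol. Per the methods, FastQC served for read quality and RSEM for quantification. The submitters' processing notes list HISAT2 2.0.4 and the human builds hg19 and GRCh38, although the table holds mouse symbols (41483 of 46095 in RefSeq GRCm38.p6), so the build is unsettled, and the annotation, strand and any rounding are not given in the sources used here. All 6 columns were used. Groups and replicate numbers came from the titles. The methods give another number of samples per group than these 3 libraries, and the labels were followed. Nothing states that replicates were separate cultures beyond wells of a plate, and p-values then measure the spread between these libraries.

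Low genes were removed by filterByExpr at a minimum count of 10, libraries were scaled with TMM factors, and each gene was tested by quasi-likelihood in edgeR 4.0.16 (R 4.3.3) with Benjamini-Hochberg adjustment and no covariate. A standard error is the absolute log2 fold change over the square root of F. Log2 CPM used a prior count of 2. With 3 libraries against 3, an exact permutation test allows no p under 0.1, and none was run. The clock genes and all lists were chosen with earlier results of these data known. The rule named all 10 clock genes and, per further list and direction, at most 4 called genes of at least 1 CPM with the largest change. Bhlhe41 and all genes that did not pass were named after their values were seen.

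The scripts were tested on simulated data. Same-group libraries differed beyond sampling noise (chi-square per gene 3.45 to 4.99). Alternatives were other scalings, filters, thresholds and tests (DESeq2 1.42.0, edgeR's exact test, limma 3.58.1 voom), a replicate block and leaving out each library. A few genes of the lists are counted but not reported by name here.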

Additional observations from a re-analysis of the deposited data

How the results depend on the processing

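Counting error was largest for Dbp, Nr1d1 and Per2, whose smallest counts carry errors of 8.42%, 8.01% and 7.65%. These are errors of single libraries and not the limit of the test. The 95% intervals ran from -14.76% to 28.87% for Dbp and from -28.05% to 7.988% for Nr1d1, whose fitted change of -11.85% did not pass. For Per2, which passed, the interval ran from -35.04% to -6.354%. The labels do not say whether same-numbered libraries were handled together. Their deviations from the group means correlated at -0.0178, -0.0335 and -0.0137 across all tested genes. A batch shared by only some genes would hardly show in such a correlation, and pairing was not tested further. With the replicate block 4613 genes passed in place of 4312, and 6 clock genes fell, Clock joining with an adjusted p = 0.0449.

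The number of clock genes that fell was 5, was 2 at an adjusted p under 0.01 and was 2 where a 1.2-fold change was also asked for. It was 6 with RLE size factors, upper quartile factors, library totals only, at least 10 counts in every library or an unadjusted p under 0.05. Without a filter on low counts it was 4, and it ran from 3 to 5 when 1 library was left out. Of the clock genes, 0 rose in all 19 settings. Their median log2 fold change was -0.16 and ran from -0.18 to -0.12 (-0.115 without sTREM-1 replicate 1) when 1 library was left out. With that 1.2-fold minimum, 1517 of all tested genes passed; further clock genes then rose in 1 case and fell in 1, glucocorticoid genes in 1 and 0, REV-ERB repressed genes fell in 2, serum genes rose in 0 and temperature genes in 1. Further clock genes that fell numbered 5 in place of 3 with upper quartile factors, 5 with library totals only and 5 at an unadjusted p under 0.05, and glucocorticoid genes 1 in place of 3 at an adjusted p under 0.01. The cause was not tested where no library is named.

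Of 150 refits of single clock genes 1 turned the sign, that of Dbp without CON replicate 1 (-0.015, with 0.12 as the highest value when 1 library was left out). Among the other named genes 10 of 495 did, all at an adjusted p over 0.6. These were Tsc22d3 with RLE size factors (-0.0016), upper quartile factors (-0.019), library totals only (-0.015), at least 10 counts in every library (-0.0016) and DESeq2 (-0.0017), and, with 1 library left out, Tsc22d3 (-0.038 to 0.033), Cirbp (-0.072 to 0.082) and Rbm3 (-0.012 to 0.0061).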
